A study of Mus musculus with 17 samples.

Results

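The genes described are 10 transcription factors of the endothelial lineage, taken by symbol from 49585 gene identifiers counted in 17 RNA-seq libraries of mouse bone marrow endothelium. They are 4 ETS factors (Erg, Fli1, Ets1, Ets2), the 3 SOXF factors (Sox7, Sox17, Sox18), 1 GATA factor (Gata2) and 2 basic helix-loop-helix (bHLH) factors (Tal1, Lyl1). The study compared wild-type mice (WT) with mice carrying Cdh5:CreERT2 and a floxed Eng gene with loxP sites around exons 5 and 6 (KO). Eng encodes Endoglin, a co-receptor for TGF-beta and BMP ligands, and CreERT2 is a recombinase that acts after tamoxifen, here under the endothelial promoter of Cdh5. All 17 animals were labelled as tamoxifen-injected, injections were given at 8 weeks of age, and marrow was taken 2 or 4 weeks after induction. Whether WT animals carried the Cre is not stated in the labels. There were 4 WT and 4 KO libraries at 2 weeks (2 females and 2 males each), 5 WT libraries at 4 weeks (2 females, 3 males) and 4 KO libraries at 4 weeks (1 female, 3 males). Cells from crushed long bones were sorted as CD31+ Sca1+ cells lacking CD45 and Ter119, although the design text gives this gate without Sca1.

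ETS factors bind DNA with a GGAA core, are found at most endothelial enhancers, and keep endothelial genes such as Cdh5 active in the adult. SOXF factors act with them in vessel formation and in arterial and lymphatic specification. Gata2, Tal1 (also called Scl) and Lyl1 belong to a complex shared by endothelium and blood stem cells, in which Tal1 or Lyl1 pairs with an E protein and is bridged to the GATA factor by Lmo2 and Ldb1.

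Time points differed in library complexity. The 8 libraries of 2 weeks held 10886 to 13583 detected genes, with 22.2% to 29.5% of counts on mitochondrial genes, and the 9 libraries of 4 weeks held 15996 to 21235 genes, with 4.66% to 8.99%. Totals were 26705337 to 40882715 and 20477400 to 33726630 counts. No batch is labelled, so time and any processing batch cannot be told apart. All 10 endothelial markers checked (among them Pecam1, Cdh5 and Kdr) were above a floor of 3 counts in every library. At 2 weeks their summed level was 4207 to 4969 CPM (counts scaled to a common library total) in KO and 5152 to 6764 in WT. At 4 weeks it was 10201 to 13052 CPM in KO and 11326 to 13803 in WT. The 9 neutrophil markers summed to 107 to 4104 CPM in KO and 22.6 to 110 in WT at 2 weeks. Their sums at 4 weeks were 37.3 to 75.4 CPM in KO and 19.9 to 100.2 in WT. The 8 erythroid markers summed to 278 to 1241 CPM in KO and 61.4 to 180 in WT at 2 weeks, and to 616 to 2890 against 158 to 1277 at 4 weeks. Of cells that also express Gata2, Tal1 or Lyl1, the 5 mast cell markers summed to at most 4.78 CPM. The 8 megakaryocyte markers summed to 37.6 to 109 CPM at 2 weeks and 159.9 to 273 at 4 weeks, and the 7 blood stem and progenitor markers to 659 to 1108 and 1183 to 1812. Endothelium expresses Vwf and Cd34 of these lists too, and Cd34 alone averaged 782 to 1469 CPM as group means. Monocyte markers reached 458 CPM in KO and 61.2 in WT at 2 weeks. Lyz2 alone reached 340 CPM in KO, and the 458 CPM were in KO m2, which also held the 4104 CPM of neutrophil markers. The part of these cells in the members' levels was not tested. In bulk samples fewer cells of a type and less RNA per cell cannot be told apart.

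In the GENCODE annotation of GRCm38 the ETS genes lie in 2 neighbouring pairs, Fli1 (chr9:32422204-32542861, minus strand) with Ets1 (chr9:32636221-32757820, plus strand), and Erg (chr16:95359169-95586593, minus) with Ets2 (chr16:95702075-95721051, plus). Sox17 lies at chr1:4490931-4497354 (minus), Sox7 at chr14:63943673-63950732 (plus) and Sox18 at chr2:181669836-181671640 (minus). Gata2 lies at chr6:88193891-88207032, Tal1 at chr4:115056426-115071755 and Lyl1 at chr8:84701457-84704715, all on the plus strand.

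Of the 10 genes, 5 had a promoter window in the RefSeq table of assembly GRCm38.p6, which spans 250 bases before to 50 after a start. Erg and Gata2 had such windows too, and Fli1, Ets1, Sox7, Sox17 and Sox18 are named only. The 3 windows below are shown because Ets2 was among the ETS genes that varied together at 4 weeks, and because Lyl1 and Tal1, which are paralogs, had very different levels. Capitals mark the ETS core GGAA on either strand.
Ets2 promoter, chr16:95702157-95702456, plus strand: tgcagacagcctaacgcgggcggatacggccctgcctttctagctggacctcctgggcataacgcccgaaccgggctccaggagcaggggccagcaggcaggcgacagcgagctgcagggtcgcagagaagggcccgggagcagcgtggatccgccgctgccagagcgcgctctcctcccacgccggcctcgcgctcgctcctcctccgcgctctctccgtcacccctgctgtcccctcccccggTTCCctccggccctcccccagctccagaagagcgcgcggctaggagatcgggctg
Lyl1 promoter, chr8:84701207-84701506, plus strand: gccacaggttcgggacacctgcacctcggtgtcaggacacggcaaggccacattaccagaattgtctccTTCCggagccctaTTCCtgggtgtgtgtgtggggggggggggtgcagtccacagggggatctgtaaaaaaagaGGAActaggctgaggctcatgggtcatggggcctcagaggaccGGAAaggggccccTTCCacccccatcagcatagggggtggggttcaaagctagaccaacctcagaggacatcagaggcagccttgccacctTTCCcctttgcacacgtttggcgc
Tal1 promoter, first of 2 windows, chr4:115056176-115056475, plus strand: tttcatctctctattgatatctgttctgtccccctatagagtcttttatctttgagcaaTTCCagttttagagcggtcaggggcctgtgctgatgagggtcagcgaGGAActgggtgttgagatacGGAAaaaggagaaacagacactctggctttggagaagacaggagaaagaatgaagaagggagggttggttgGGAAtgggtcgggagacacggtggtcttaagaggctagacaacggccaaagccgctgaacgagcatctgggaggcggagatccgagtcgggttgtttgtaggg

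Tal1 had a second window (chr4:115057561-115057860, plus strand), which is not printed. The Ets2 window held 1 GGAA core, the Lyl1 window 6 and each Tal1 window 4. The letters GATA, searched on both strands, occurred 1 time in the Ets2 window, 0 times in the Lyl1 window, 4 times in the first Tal1 window and 0 times in the second. Of 32544 RefSeq windows of this length, 96.0% held a GGAA and 57.7% held a GATA, so most promoters would match either.

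Levels can be compared between genes only per length, as read counts per kilobase of exon, scaled to the library total (RPKM). Sox18, which specifies lymphatic and other endothelium, was highest in all 4 groups, at 470 ± 118 RPKM in WT at 2 weeks (SD, n = 4), 375 ± 100.1 in KO at 2 weeks (n = 4), 519 ± 96.9 in WT at 4 weeks (n = 5) and 504 ± 141 in KO at 4 weeks (n = 4). Its lowest library lay above the highest library of the next gene in each group. It stood at percentile 99.5 to 99.7 of 21734 protein-coding genes by mean RPKM. Tal1 was lowest, at 0.76 to 1.63 RPKM as group means, and Erg was ninth in every group, at 9.48 to 12.8 RPKM. Ranges of Erg and Tal1 did not overlap in 3 of the 4 groups, the exception being KO at 2 weeks.

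Between these ends the order was not firm. Sox17 followed Sox18 in 3 groups, with 72.5 ± 15.2 RPKM in WT at 2 weeks, 102 ± 10.7 in WT at 4 weeks and 109 ± 6.20 in KO at 4 weeks, and overlapped its lower neighbour each time. In KO at 2 weeks Fli1 (46.3 ± 5.61), Sox17 (44.3 ± 12.5) and Ets2 (43.4 ± 14.9) overlapped one another. Lyl1 had 20.9 to 32.9 RPKM and Gata2 18.2 to 29.7 as group means, and they overlapped in all 4 groups. Lyl1, which can replace Tal1 in its complex, made up 96.6% ± 1.45 (SD, n = 4) of the summed Tal1 and Lyl1 RPKM in KO at 4 weeks and 96.1% ± 1.46 (n = 5) in WT at 4 weeks. At 2 weeks the share was 96.1% ± 6.60 (n = 4) in WT and 74.1% ± 43.6 (n = 4) in KO, where KO f4, with 1 count of Lyl1, was at 8.87%.

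**Figure D1:**
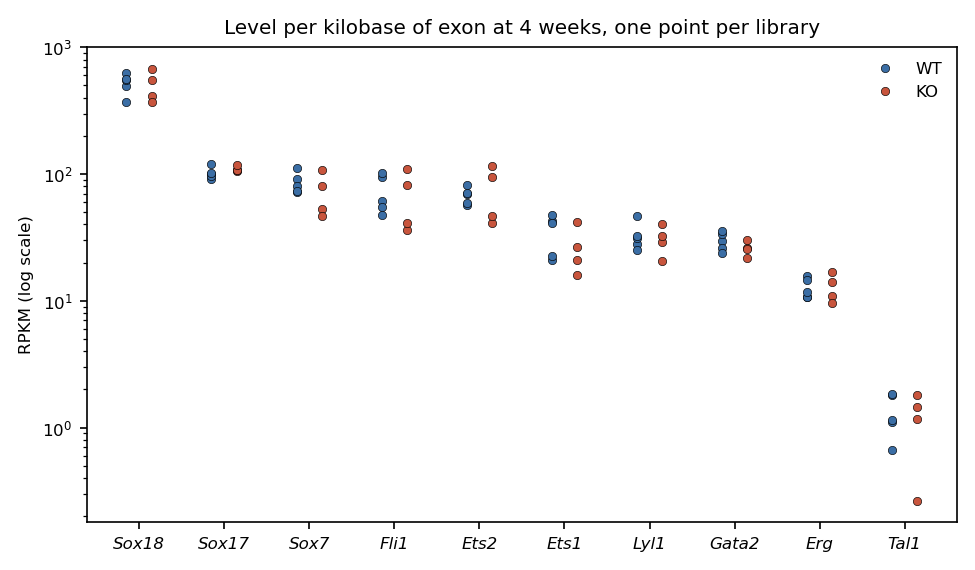
RPKM on a log scale for the 10 genes at 4 weeks, one point per library (WT blue, KO red). Sox18 lies above the other genes and Tal1 below them in both genotypes, and the genes between Sox17 and Gata2 overlap their neighbours in many cases.

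The targeted gene checks the labels. Eng was at 1116, 1083, 705 and 1307 CPM in the WT libraries f1, f4, m2 and m3 at 2 weeks and at 225, 266, 347 and 259 in the KO libraries of the same names. At 4 weeks it was at 2594, 2633, 2400 and 2735 CPM in WT f, f3, m1 and m2, at 2574 in WT m3, and at 873, 322, 1647 and 274 in KO f2, m1, m2 and m3. KO libraries were below WT libraries at both times, with exact two-sided permutation p = 0.0286 and p = 0.0159, the smallest these sample numbers allow. KO m2 at 4 weeks kept the highest Eng level of the KO libraries.

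The question was then whether loss of Endoglin came with another level of any of these factors. With edgeR's quasi-likelihood test and Benjamini-Hochberg adjustment, none of the 10 genes passed 0.05 at 2 weeks, where 0% of 10477 tested genes did, and none at 4 weeks, where 0% of 15209 did. Nor did Eng, at a log2 fold change of -1.96 (SE 0.25, edgeR adjusted p = 0.612) at 2 weeks. At 4 weeks Eng was at -1.72 (SE 0.50, edgeR adjusted p = 0.9997). Averaged over both times Eng passed (-1.83, SE 0.31, edgeR adjusted p = 0.0378). A gene that did not pass at a single time can thus still differ in level. At an unadjusted p under 0.05, 2 of 10 genes were lower in KO at 2 weeks and none at 4 weeks, against 2.63% and 2.77% of all genes in either direction and 1.47% lower in KO at each time. DESeq2 called none of the 10 at either time, and 149 and 17 genes in all. The median log2 fold change of the 10 was -0.16 at 2 weeks and -0.12 at 4 weeks, beside -0.06 and 0.01 over all tested genes. Ranges of KO and WT overlapped for all 10 genes at both times, while 3.36% and 1.19% of tested genes had no overlap.

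**Figure D2:**
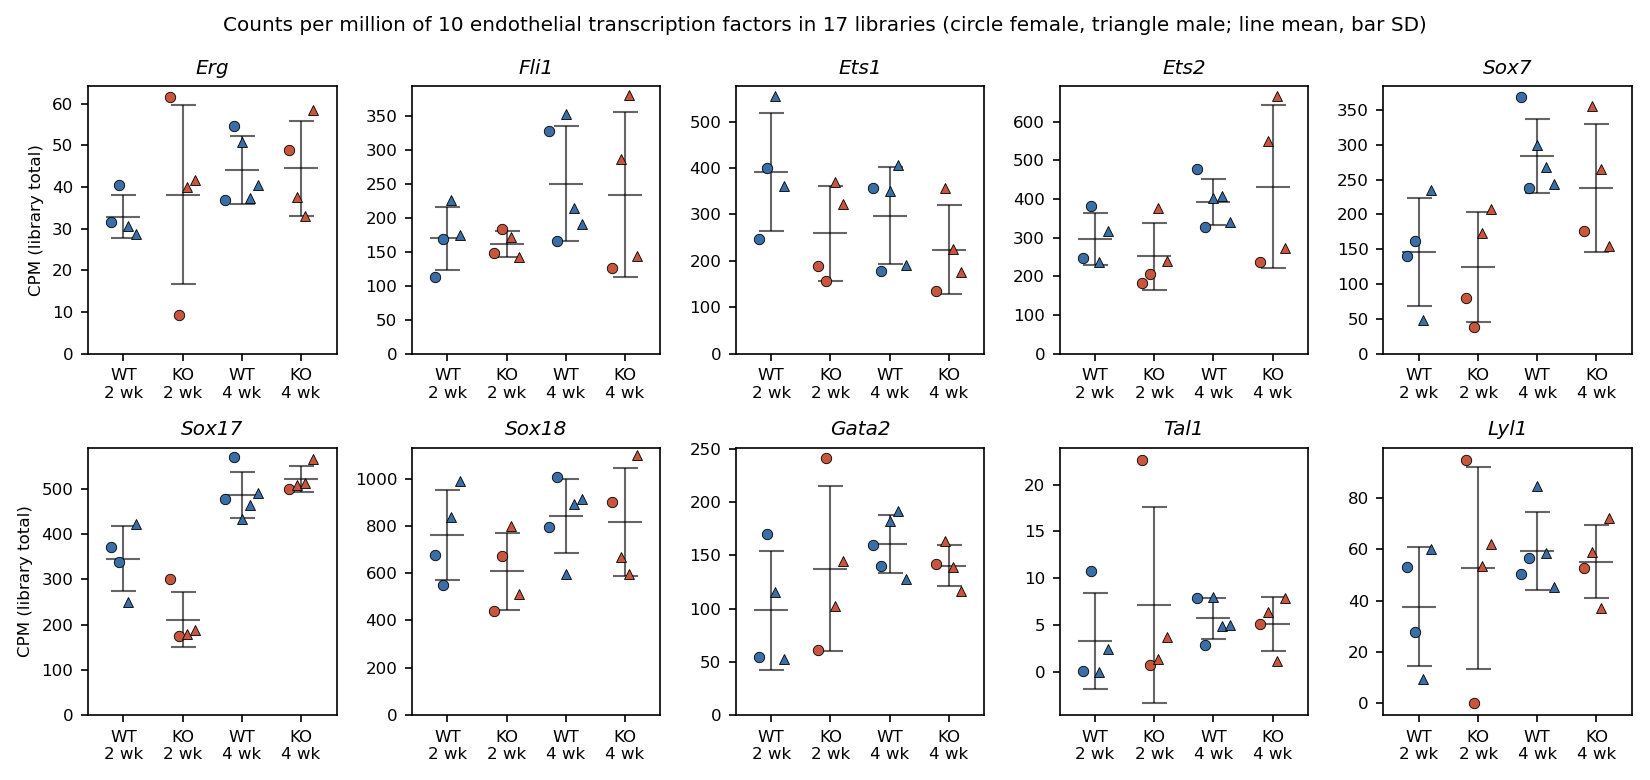
CPM of the 10 genes in each of 17 libraries (circles females, triangles males; WT blue, KO red), with the group mean as a line and the SD as a bar. KO and WT points overlap in every panel at both times, and the mean of Sox17 runs from 211 CPM in KO at 2 weeks to 522 in KO at 4 weeks. CPM here is of the library total. On values scaled by TMM these means were 238 and 476.

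Among the ETS factors, Ets1, which is active in angiogenic endothelium, was lower in KO on average at both times, but did not pass the adjusted test at either. Its CPM was 247, 401, 556 and 360.5 in WT f1, f4, m2 and m3 at 2 weeks and 189, 156, 369 and 322 in the KO libraries. Each KO library was below the WT mean, yet KO m2 exceeded WT f1 and WT m3. The log2 fold change was -0.65 (SE 0.22) with an unadjusted p = 0.0208 and adjusted p = 1 in edgeR, and the exact permutation p was 0.171. At 4 weeks Ets1 was at 136, 356, 226 and 177 CPM in KO f2, m1, m2 and m3 and 358, 178, 351, 406 and 192 in WT f, f3, m1, m2 and m3. That difference was -0.49 (SE 0.31, edgeR adjusted p = 0.9997), from -0.74 without KO m1 to -0.31 without KO f2. Averaged over both times it was -0.57 (SE 0.21), with edgeR adjusted p = 0.319.

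Erg, an ETS factor needed for endothelial identity, varied most in KO at 2 weeks. Its CPM was 61.6, 9.34, 39.9 and 41.8 in KO f1, f4, m2 and m3, against 31.5, 40.5, 30.6 and 28.8 in WT. Its highest and its lowest library of that age were thus both KO females. The log2 fold change was 0.21 (SE 0.68) at 2 weeks and 0.05 (SE 0.25) at 4 weeks, where libraries lay at 36.9 to 54.7 CPM in WT and 33.1 to 58.5 in KO. Neither passed the test (edgeR adjusted p = 1 and 0.9997), and without KO f1 the 2-week value was -0.35. The difference of mean log2 CPM of Erg was -0.06 at 2 weeks and -0.0013 at 4 weeks, so its sign differed from that in edgeR.

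Fli1, the close relative of Erg, was at 112 to 226 CPM in WT against 143 to 184 in KO libraries at 2 weeks, and its fold change on the log2 scale was -0.05 (SE 0.22). At 4 weeks the ranges were 166 to 353 and 126 to 381 CPM, and the fold change was -0.20 (SE 0.36). Ets2, which responds to growth factor signalling, was at 238 to 382 CPM in WT libraries and 183 to 375 in KO libraries at 2 weeks (log2 difference -0.28, SE 0.27), from -0.48 without KO m2 to -0.07 without WT f4. At 4 weeks its 5 WT libraries lay at 328 to 477 CPM and its 4 KO libraries at 236, 551, 667 and 272, so that the KO values were both lower and higher than all WT values. The fold change was 0.06 (SE 0.30).

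None of the 3 SOXF genes passed the test between genotypes at either time. Sox17, an arterial and blood-forming endothelial regulator, was at 373, 338, 251 and 423 CPM in WT f1, f4, m2 and m3 at 2 weeks, and at 301, 176, 180.3 and 189 in the KO libraries. All KO libraries were below the WT mean, but KO f1 exceeded WT m2. The log2 fold change was -0.73 (SE 0.25), with an unadjusted p = 0.0207 and adjusted p = 1 in edgeR, and exact permutation p = 0.0571. Leaving out 1 library gave -0.92 (without KO f1) to -0.51 (without WT m3). At 4 weeks the KO libraries were at 500.1, 509, 513 and 566 CPM and the WT libraries at 478, 571, 434, 464 and 490.2, a log2 difference of 0.13 (SE 0.13), from 0.07 without KO m3 to 0.21 without KO f2. In the 3 same-numbered pairs of males at 4 weeks Sox17 was higher in KO in 3 and Gata2 lower in KO in 3, while the other 8 genes went both ways. With only 3 pairs a gene often goes the same way in each by chance, and the share over all genes was not computed. With the replicate number as a block the log2 values were 0.13 (SE 0.12) for Sox17 and -0.18 (SE 0.11) for Gata2, and edgeR's adjusted p was 0.994 for both.
Sox7 was more spread, with 47.5 to 235 CPM in WT libraries and 38.6 to 208 in KO libraries at 2 weeks. Its log2 fold change was -0.48 (SE 0.64) at 2 weeks and -0.26 (SE 0.25) at 4 weeks. Leaving out 1 library moved these to between -0.99 (without WT m2) and -0.10 (without KO f4) at 2 weeks, and to between -0.49 (without KO m1) and -0.06 (without KO f2) at 4 weeks. Sox18 was at 549 to 989 CPM in WT libraries and 440.3 to 801 in KO libraries at 2 weeks (log2 difference -0.31, SE 0.21), from -0.49 without KO f4 to -0.18 without KO m3. At 4 weeks its fold change was 0.01 (SE 0.23), and the sign turned with DESeq2 size factors, without the sex term and in other fits.
Of the exonic bases of Sox17, 804 (16.8%) are shared with the antisense gene Gm37587, and the strand setting of the counting is not given in the sources used here, so their reads cannot be told apart. Lyl1 shares 4 exonic bases with Nfix on the other strand.

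Gata2 was at 54.9, 170, 116 and 52.8 CPM in WT and 61.4, 241, 103 and 145 in KO at 2 weeks. The log2 fold change was 0.52 (SE 0.55), from 0.05 without KO f4 to 0.93 without WT f4, and at 4 weeks, with 128 to 192 CPM in WT and 116 to 163 in KO, it was -0.18 (SE 0.15), from -0.28 without WT m3 to -0.11 without WT m2.
Tal1 was uneven at 2 weeks. WT f1 had 4 counts and WT m2 had 0, which at a floor of 3 counts allows up to 0.0921 CPM, while the other 6 libraries held 25 to 605 counts, with 10.8 CPM in WT f4 and 22.7 in KO f1. Lyl1 was likewise uneven at 2 weeks, with 1 count in KO f4 against 2537 in KO f1. At 4 weeks both genes were detected in all 9 libraries, Tal1 at 1.16 to 8.03 CPM and Lyl1 at 37.2 to 84.7. The 2-week log2 fold changes in edgeR were 1.08 (SE 2.08) for Tal1 and 0.44 (SE 1.53) for Lyl1. They turned to -0.13 and -0.85 without KO f1. The difference of mean log2 CPM at 2 weeks was 2.16 for Tal1 (exact permutation p = 0.314) and -1.23 for Lyl1 (exact permutation p = 0.971), so the direction for Lyl1 differed between the measures. Their 4-week log2 fold changes were -0.13 (SE 0.62) and -0.10 (SE 0.26). None of these fold changes passed the test (edgeR adjusted p = 1 at 2 weeks and 0.9997 at 4 weeks).

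**Figure D3:**
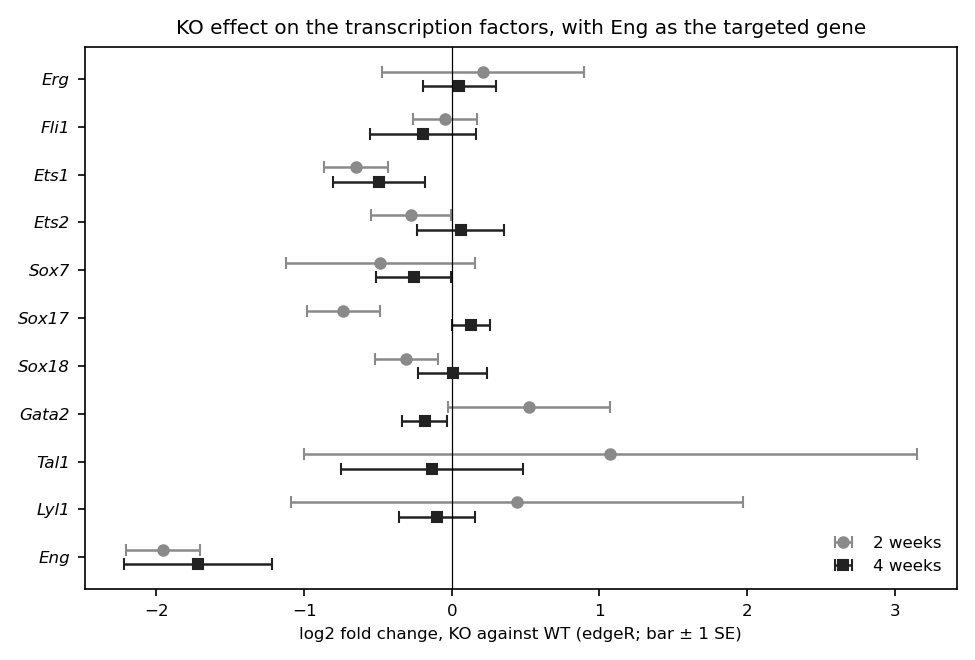
Log2 fold change of KO against WT at 2 weeks (grey circles) and 4 weeks (black squares) for the 10 genes and for the targeted gene Eng, with bars of 1 SE. The 2-week points of Ets1 (-0.65) and Sox17 (-0.73) lie furthest below 0 among the 10 genes, and those of Tal1 and Lyl1 at 2 weeks are the widest.

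Averaged over both times, none of the 10 genes passed, beside 0.0962% of 13515 genes, and 2 (Ets1 and Sox17) had an unadjusted p under 0.05, beside 11.1%. Sox17 averaged -0.29 (SE 0.13, edgeR adjusted p = 0.408), or -0.17 (adjusted p = 0.662) without WT m3 at 2 weeks. The difference between the KO effects of 4 and 2 weeks passed for none of the 10 genes, beside 0.104% of all genes, and 1 had an unadjusted p under 0.05, beside 9.48%. It was largest relative to its error in Sox17, at 0.85 (SE 0.26, unadjusted p = 0.00532, edgeR adjusted p = 0.313). DESeq2 gave the same difference as 0.85 with an adjusted p = 0.0242, so this call depends on the tool. Without KO f1 the edgeR value was 0.99, adjusted p = 0.178, and without WT m3 at 2 weeks it was 0.65, adjusted p = 0.248. Without the 2-week KO libraries m2 and m3, which held 4104 and 3150 CPM of neutrophil markers, the 2-week difference was -0.62 for Sox17 and -0.94 for Ets1.

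Between time points the median of all 13515 genes shifted by 0.27 in WT and 0.34 in KO on the log2 scale. This shift depended on the genes tested and the model: it was 0.0025 and -0.02 with at least 10 counts in every library, 0.74 and 0.60 with no filter, and 0.63 and 0.86 with the replicate block. In WT none of the 10 genes passed in edgeR (8.04% of all genes did), 1 had an unadjusted p under 0.05 (17.7% of all genes), and their median was 0.22. In KO 1 of 10 passed (7.56% of all genes, with 5.7% called higher), 2 had an unadjusted p under 0.05 (18.3% of all genes), and their median was 0.01. This gene was Sox17, which rose by a log2 fold change of 1.04 (SE 0.19, edgeR adjusted p = 0.00456), from 0.95 to 1.18 when 1 library was left out. In the same comparison the 7 tested neutrophil markers were all lower at 4 weeks, with a median of -4.66. Their part in the Sox17 difference was not tested. On values scaled by TMM, Sox17 was at 318, 197, 208 and 227 CPM in KO f1, f4, m2 and m3 at 2 weeks and at 476, 456, 449.98 and 522 in KO f2, m1, m2 and m3 at 4 weeks. The 4-week libraries were all above the 2-week libraries, as in 16.4% of genes. In WT the Sox17 difference was 0.19 (SE 0.18, edgeR adjusted p = 0.747), from 0.06 without WT m2 to 0.42 (adjusted p = 0.132) without WT m3 at 2 weeks, and levels overlapped on TMM values (271 to 512 against 389 to 553 CPM), but not on CPM of the library total (251 to 423 against 434 to 571). Sox7 in WT likewise did not overlap only on CPM of the library total, where 17.4% of genes were wholly higher at 4 weeks.

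Ets1 went the other way in both genotypes. At 4 weeks it differed from 2 weeks by -0.74 (SE 0.28, unadjusted p = 0.0191, edgeR adjusted p = 0.145) in WT and by -0.66 (SE 0.30, unadjusted p = 0.0430, edgeR adjusted p = 0.244) in KO, neither of which passed. The other 8 genes had log2 differences of -0.16 to 0.93 in WT and -0.26 to 0.56 in KO. Some of these depended on single libraries of 2 weeks. Tal1 in WT was 0.38 without WT m2 and 2.28 without WT f4. Sox7 in KO was 0.28 without KO f4 and 0.90 without KO m3.

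**Figure D4:**
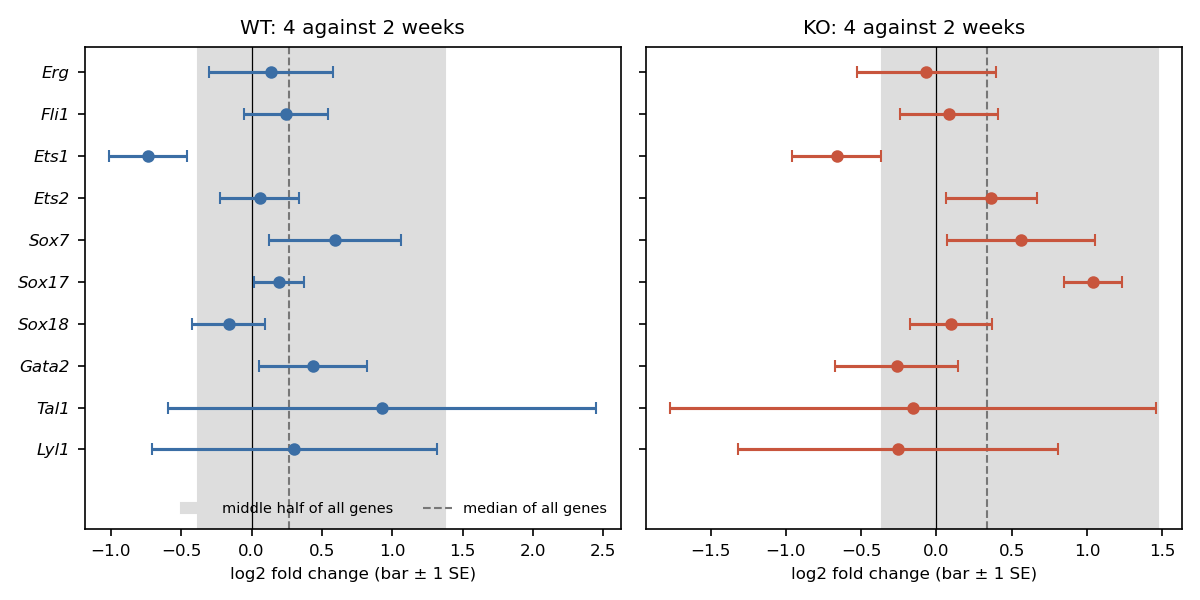
Log2 fold change of 4 against 2 weeks in WT (left) and KO (right) for the 10 genes, with bars of 1 SE. The shaded band spans the middle 50% of all genes and the dashed line is their median. Sox17 in KO, at 1.04, is the one gene that passed the test.

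Related genes were counted from lists chosen with earlier results known. Of 16 textbook targets of these factors, none passed at 2 or 4 weeks between genotypes (edgeR), with 3 and 1 lower at an unadjusted p under 0.05, beside 1.47% of all genes at each time. The 16 include all 10 endothelial markers checked above, so they are not separate from the check of endothelial content. The kinase receptor Tie1 was at -0.81 (SE 0.31) and -0.52 (SE 0.19), and the VEGF receptor Flt1 at -0.69 (SE 0.13) at 2 weeks. At 4 weeks Flt1 overlapped between genotypes, with 538 to 1292 CPM in KO and 788 to 1476 in WT. Between times all 16 had a positive fold change in both genotypes, as did 60.5% of all genes in WT and 61.7% in KO, with 7 in each past the adjusted threshold beside 5.74% and 5.7% of genes. Examples are the junction protein Cdh5, at 1.11 (SE 0.14) in WT and 1.27 (SE 0.15) in KO, and Pecam1, at 1.18 (SE 0.16) and 1.18 (SE 0.17). Of 12 other ETS genes 10 were tested between times and 1 rose in each genotype, Elk3, a repressor of the ternary complex family, at 0.89 (SE 0.21, edgeR adjusted p = 0.0175) in WT and 1.04 (SE 0.22, adjusted p = 0.00991) in KO. Of 11 partners of the GATA and Scl complex (Lmo2, Ldb1 and others) 9 or 10 were tested, and of 16 other endothelial transcription factors 12 to 15. None of those tested passed in edgeR in any of the 6 comparisons.

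At 4 weeks the libraries divided by their first principal component, computed without the 10 genes and the listed genes (46.5% of variance, 4656 genes), and this division crossed genotype. WT f, m1 and m2 and KO m1 and m2 lay on one side and WT f3 and m3 and KO f2 and m3 on the other. Of the 10 genes 5 did not overlap between these libraries. Ets1 (226 to 406 against 136 to 192 CPM), Ets2 (402 to 667 against 236 to 340.5), Fli1 (215 to 381 against 126 to 191) and Sox7 (265 to 368 against 155 to 243) were lower on the second side, where 7.4% of 15209 genes were wholly lower. Sox18 was higher there (902 to 1099 against 595 to 892), as were 3.73% of genes. Stroma markers summed to 2710 to 3612 CPM on the first side and 1117 to 1555 on the second. Of that sum 94.9% to 97.5% in each library was Cxcl12 and Kitl, which endothelium also expresses. The summed level of the other ETS genes was 859.9 to 1020 CPM against 623 to 707, and that of the other endothelial transcription factors 2855 to 3351 against 1562 to 1945. The part of any of these in the members' levels was not tested. Within the sides, KO minus WT was taken on log2 CPM over 2 KO and 3 WT and over 2 KO and 2 WT libraries. It was 0.50 and -0.40 for Ets2, 0.18 and -0.40 for Fli1, and -0.39 and -0.25 for Ets1. For Sox7 it was -0.01 and -0.54, for Sox17 0.16 and 0.01, and for Sox18 -0.25 and 0.05. For Tal1 it was -1.27 and 0.72, for Lyl1 -0.43 and 0.28, for Erg -0.22 and 0.18, and for Gata2 -0.23 and -0.06.

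**Figure D5:**
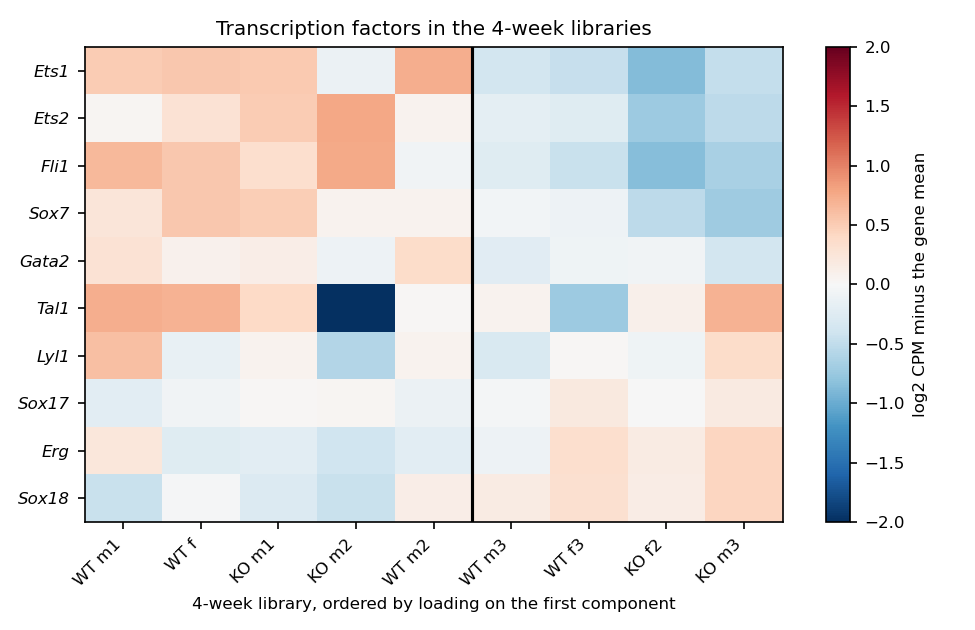
Log2 CPM minus the gene mean over 9 libraries of 4 weeks, ordered by loading on the first component, with the black line between its sides. Ets1, Ets2, Fli1 and Sox7 are higher to the left and Sox18 is higher to the right, and both sides hold WT and KO libraries.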

How the data were processed

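Raw counts per gene were deposited by the authors, 1 table per library, and STAR, cutadapt, HTSeq 0.6.1p1 and builds GRCm38 and mm10 are named in the submitters' processing notes. SmartSeq2 carries no molecular identifiers, so the floor of 3 counts (0.0734 to 0.147 CPM) covers counting error only. Symbols and exon lengths came from GENCODE M21 (GRCm38), which matched 49326 of 49585 identifiers.

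edgeR 4.0.16 in R 4.3.3 (filterByExpr on genotype, TMM, robust quasi-likelihood) was fitted per time point with sex and genotype, and over 17 libraries with a mean per group and sex. P-values were adjusted over all genes by Benjamini-Hochberg at 0.05; SE is the fold change over the root of F. The scripts were tested on simulated data. Two-sided exact permutation tests used log2 CPM (prior count 2; scipy). P-values measure the spread between these libraries. Alternatives were DESeq2 1.42.0, other scalings and filters, no sex term, a replicate block and leaving out libraries. After results were seen, a term for the 4-week split was added, the joint fit's filter was changed from the 4 groups to genotype, to match the fits per time point, and its replicate block was recoded; the replaced versions are reported as alternatives.

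Same-numbered males at 4 weeks deviated together (r = 0.411, 0.138 and 0.536 over 4711 genes), above the 0.1 required in every pair, so the block was read as a pairing; the labels do not say so. Libraries of unlike number on the same side of the 4-week split deviated together as much (KO m1 with WT f 0.523, KO m2 with WT f 0.412, KO f2 with WT f3 0.573), so the numbers and the split cannot be told apart there. All 10 genes and Eng are named by rule, and of the lists at most 3 genes per comparison. The genes and lists were chosen with earlier results of these data known.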

Additional observations from a re-analysis of the deposited data

Results flagged for a closer look

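In the 2-week KO group, library f1 stood apart for 2 genes. Sox17 was at 301 CPM there, against 176 to 189 in the other KO libraries. Tal1 was at 22.7 CPM there, against 0.74 to 3.74. In each case the gap to the nearest library exceeded Dixon's 95% limit. Of 44 groups tested, 2 were singled out in this way, and chance does so in about 5% of groups.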

How the results depend on the processing

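The number of the 10 genes called stayed at its reported value under all alternatives except these. DESeq2's test called 1 (Sox17) for the difference of KO effects. A replicate block coded to one reference library set, run first and replaced because it compares time points only at the reference libraries, called 1 for WT between times (Gata2, 1.44, adjusted p = 0.0358) and 0 for KO between times (Sox17, 0.86, adjusted p = 0.0591); recoded to sum to 0 within a time point it called 0 and 1 (Sox17, 1.02, adjusted p = 0.00486). Blocking changed no other call; numbers did not pair 2-week libraries (r = -0.0101 to 0.0706). The filter on the 4 groups, also run first, changed no member's call (Sox17, 1.04, adjusted p = 0.00571). Over all genes, DESeq2 called 149, 17, 1004 and 929 genes between genotypes at 2 weeks, at 4 weeks, averaged and in the difference, beside 0, 0, 13 and 14 in edgeR, and 2090 and 2144 between times in WT and KO, beside 1086 and 1022. Those last counts were 580 and 567 without a filter, 639 and 626 with 10 counts in every library and 1892 and 2016 with the block. The joint fit called 33 genes at 2 weeks, leaving out sex gave 30 averaged, no filter gave 8 and 6 averaged and in the difference, 10 counts in every library gave 3 and 0, and the block gave 0 for both.

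Directions turned for small fold changes. For Sox18 at 4 weeks the values were -4.17e-05 with DESeq2 size factors, -4.15e-05 with its test, -0.032 without sex, -0.017 with the block, -0.044 in the joint fit and -0.10 with the split term, where Erg was -0.053. Fli1 at 2 weeks was 0.021 with upper quartile scaling and 0.22 without KO m2 and m3, where Erg was -0.074. Erg in KO between times was 0.0041 when every library needed 10 counts. With either block coding Lyl1 averaged -0.049 and Sox7 was 0.021 in the difference. With the block summing to 0, Lyl1 was -0.011 at 2 weeks and 0.23 in KO between times, Ets2 at 4 weeks -0.0034 and Erg in KO between times 0.021. The reference-coded block gave Erg -0.16, Sox18 0.38 and Lyl1 -0.62 in WT and Gata2 0.77 in KO between times. The cause was not tested.

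Leaving out 1 library at a time gave 0 called genes for each comparison but KO between times, which gave 1. Fold changes whose sign turned had these ranges between genotypes at 2 weeks, Erg -0.35 to 0.59, Fli1 -0.20 to 0.058, Tal1 -0.13 to 2.60 and Lyl1 -0.85 to 1.04. Between genotypes at 4 weeks, Erg -0.15 to 0.17, Fli1 -0.45 to 0.099, Ets2 -0.16 to 0.38, Sox18 -0.22 to 0.12, Tal1 -0.42 to 0.18 and Lyl1 -0.25 to 0.088. Averaged over both times, Erg -0.041 to 0.33, Ets2 -0.21 to 0.015, Gata2 -0.045 to 0.38, Tal1 -0.30 to 1.35 and Lyl1 -0.17 to 0.42. In the difference of KO effects, Erg -0.53 to 0.10, Fli1 -0.43 to 0.056, Ets1 -0.16 to 0.28, Sox7 -0.33 to 0.31, Tal1 -2.93 to 0.40 and Lyl1 -0.98 to 0.050. Between times in WT, Erg -0.014 to 0.23, Ets2 -0.100 to 0.27, Sox18 -0.32 to 0.028 and Lyl1 -0.057 to 0.77. Between times in KO, Erg -0.38 to 0.22, Fli1 -0.18 to 0.30, Sox18 -0.067 to 0.27, Gata2 -0.50 to 0.11, Tal1 -0.64 to 0.98 and Lyl1 -0.63 to 0.30. At 2 weeks Tal1 had 0 and 4 counts in WT m2 and f1 and Lyl1 had 1 in KO f4, at or near the floor of 3 counts.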

Other observations

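At 2 weeks the first principal component (27.3% of variance, 2958 genes, computed without the 10 genes) set KO f4 apart and the second (20.8%) set KO f1 apart. KO f4 had the highest Gata2 of its age at 241 CPM, the lowest Erg at 9.34 CPM and 1 count of Lyl1. KO f1 had the highest Erg at 61.6 CPM, the highest Lyl1 at 95.0 CPM and the highest Tal1 at 22.7 CPM.

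The spread between libraries is given for genes chosen after their values were seen. The coefficient of variation of Gata2 was 56.9% in WT and 56.1% in KO at 2 weeks, and 16.9% and 13.7% at 4 weeks. For Lyl1 it was 62.0% and 74.8% at 2 weeks and 25.8% and 26.1% at 4 weeks. Fli1 went the other way, with 27.3% and 12.1% at 2 weeks and 33.7% and 51.8% at 4 weeks. So did Ets1, with 32.7% and 39.7% at 2 weeks and 35.2% and 42.7% at 4 weeks. Ets2 and Sox18 rose in KO only. For Ets2 it was 22.7% and 34.3% at 2 weeks and 15.3% and 48.9% at 4 weeks. For Sox18 it was 25.1% and 26.7%, then 18.7% and 28.0%. For Sox7 it was 52.9% and 63.4% at 2 weeks and 18.8% and 38.6% at 4 weeks, for Sox17 21.0% and 28.3%, then 10.5% and 5.67%, and for Erg 15.9% and 56.5%, then 18.5% and 25.7%. These differences in spread were not tested.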
